A study of Mus musculus with 6 samples.

Results

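A set of 40 imprinted genes, which in many tissues are transcribed mainly from the copy of 1 parent, was followed in UVB-irradiated mouse keratinocytes with and without Cebpb. They are the rows of the deposited count table whose symbol is on a list of imprinted genes, and all of them were found among its 55416 genes. By the parent whose copy is known to be active, 22 are paternally expressed and 16 maternally expressed. The other 2, Gnas and Inpp5f, make products that differ in imprinting. The members were chosen by symbol, with no threshold on a measured value. Their CPM in knockout and wild type libraries were in view when the list was made, so the fold changes between these groups describe these libraries and are no independent evidence. The cells were primary keratinocytes from the epidermis of C57BL/6J:129 hybrid pups 1 to 2 days old. One group was Cebpb knockout (C/EBPβ -/-), labelled CEBPB KO, and the other wild type (wt), with 3 libraries each (knockout 4, 5 and 6, wild type 1, 2 and 3). Both had been grown in 0.05 mM calcium, received 10 mJ/cm2 of UVB at 312 nm from 5 days after plating on, and were collected 8 h later. With no unirradiated library, how either genotype answered the irradiation was not measured.

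Genomic imprinting rests on DNA methylation that is laid down in the egg or the sperm and kept on that parent's copy after fertilisation. Most imprinted genes lie in clusters governed by a control region, and many of them set the growth of the fetus and the newborn. Paternally expressed genes of this kind often favour growth and maternally expressed genes often restrain it. Several are expressed together in growing tissues and decline as growth slows after birth. Plagl1 encodes ZAC1, a zinc finger transcription factor that has been placed at the centre of such a network. The counts do not separate the parental copies, so none of the values below says which copy was read.

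The 4 promoter windows below are shown because they belong to genes with some of the largest falls in knockout cells. Each runs from 250 bases before to 50 after an annotated start, is taken from RefSeq on GRCm38.p6, an older build than that of the count table, and is written 5′ to 3′ on the strand of the gene. Peg3 and Usp29 start 164 bp apart on opposite strands, and their windows share 263 of 300 bases. In the Peg3 window (chr7:6730370-6730669, minus strand), capitals mark the stretch from the start of Usp29 to the start of Peg3. It holds 5 of the window's 13 CpG dinucleotides, the sites that imprints methylate.
Peg3 and Usp29 shared promoter: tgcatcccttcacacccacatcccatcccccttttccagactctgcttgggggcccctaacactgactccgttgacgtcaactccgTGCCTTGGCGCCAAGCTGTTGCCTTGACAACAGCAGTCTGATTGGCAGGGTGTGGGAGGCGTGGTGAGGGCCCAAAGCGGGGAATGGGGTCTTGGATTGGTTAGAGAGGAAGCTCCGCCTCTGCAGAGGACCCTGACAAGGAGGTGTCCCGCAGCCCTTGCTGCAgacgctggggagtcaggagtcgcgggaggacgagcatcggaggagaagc
The upstream Mest window (chr6:30733256-30733555, plus strand) has its match to the C/EBP core in capitals. The downstream Mest window (chr6:30737800-30738099, plus strand) and the Plagl1 window (chr10:13090582-13090881, plus strand) have their matches to the core of ZFP57, a zinc finger protein that keeps imprints methylated, in capitals.
Mest upstream promoter: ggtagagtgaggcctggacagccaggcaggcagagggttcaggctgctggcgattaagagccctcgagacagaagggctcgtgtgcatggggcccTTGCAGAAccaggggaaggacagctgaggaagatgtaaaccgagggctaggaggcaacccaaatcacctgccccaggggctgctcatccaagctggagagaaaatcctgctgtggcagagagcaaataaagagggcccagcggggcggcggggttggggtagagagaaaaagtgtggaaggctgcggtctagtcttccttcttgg
Mest downstream promoter: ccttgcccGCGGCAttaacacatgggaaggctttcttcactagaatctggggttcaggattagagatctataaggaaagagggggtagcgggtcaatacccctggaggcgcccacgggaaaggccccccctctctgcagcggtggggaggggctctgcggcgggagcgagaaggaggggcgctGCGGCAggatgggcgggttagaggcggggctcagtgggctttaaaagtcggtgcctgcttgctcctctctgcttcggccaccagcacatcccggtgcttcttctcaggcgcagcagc
Plagl1 promoter: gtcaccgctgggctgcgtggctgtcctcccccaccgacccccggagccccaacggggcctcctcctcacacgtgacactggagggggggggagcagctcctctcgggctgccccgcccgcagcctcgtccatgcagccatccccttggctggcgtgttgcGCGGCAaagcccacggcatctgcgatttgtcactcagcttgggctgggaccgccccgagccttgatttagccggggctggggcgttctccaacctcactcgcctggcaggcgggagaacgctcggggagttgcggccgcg
A total of 3 motif cores were searched on both strands of 50 windows of 33 members: TGCCGC for ZFP57, TTGCNNAA for C/EBP and GCCATNTT for YY1, a factor with sites in the Peg3 locus. The YY1 core was added after the values were seen. No window of Cdkn1c, H19, Sgce, Peg10, Rtl1, Dcn or Impact was among those searched. The ZFP57 core stood in 10 of the 50 windows, against 11.6% of all 32851 windows, the C/EBP core in 3, against 10.8%, and the YY1 core in 3, against 6.1%. The C/EBP core occurred in a window of Mest, Ndn and Magel2, and neither Peg3 nor Usp29 had a match to any of the 3 cores. The member windows had a median of 13 CpG dinucleotides, against 7 over all windows. It was 14 in windows of genes called lower and 15.5 in windows of genes called higher. The ZFP57 core itself holds a CpG, and the shares were not adjusted for CpG content. Windows of a gene can overlap, as some of Mest do, so the same match can count more than once. These matches describe letters and not binding.

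H19 and Mest carry microRNA hairpins, H19 in an exon and Mest in an intron, and their mature sequences are printed with the seed, bases 2 to 8, in capitals.
miR-675-5p: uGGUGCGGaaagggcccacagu
miR-675-3p: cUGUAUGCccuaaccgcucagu
miR-335-5p: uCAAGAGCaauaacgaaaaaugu
miR-335-3p: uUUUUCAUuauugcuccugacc
The 4 seeds differ from each other. Mature microRNAs were not measured here: the row of Mir675 had 0 counts in all 6 libraries and that of Mir335 had 0, 1 and 0 counts in knockout libraries, against 7, 0 and 7 in wild type libraries.

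Total counts were 81256192 to 92987497 in knockout libraries and 107757415 to 122797031 in wild type libraries, so that 3 counts correspond to 0.0349 CPM or less (CPM is the count scaled to library size, here with TMM factors). Cebpb had 78, 109 and 78 counts in knockout libraries, against 18184, 17628 and 12036 in wild type libraries. Krt5, the basal keratin, had at least 965639 counts in every library. Of all 17659 genes that passed the filter on low counts, 48.6% were called at an adjusted p under 0.05 by edgeR's quasi-likelihood test, 24.8% higher and 23.7% lower in knockout cells. With library totals in place of TMM the median log2 fold change of all genes was 0.21, against 0.01, and higher genes made up 72.5% of the calls, against 51.1%. Markers of fibroblasts, which express many imprinted genes in skin, summed to 21.1 to 25.7 CPM in knockout and 16.8 to 20.6 CPM in wild type libraries, with 1 of 12 called higher, 3 lower and Lum at 0 in every library. Postn, the marker called higher, made that sum higher. Without it the fibroblast sum was 8.68 to 9.75 CPM in knockout and 16.1 to 20.1 CPM in wild type libraries. Among the remaining markers Col5a1 differed most (3.61 CPM in knockout and 9.28 CPM in wild type cells). Col1a1 was higher in knockout (1.35 and 0.959 CPM) and not called. Melanocyte markers summed to 609 to 691 CPM in knockout and 700.5 to 786 CPM in wild type libraries, with 6 of 8 called lower and none at 0 throughout. Endothelial markers summed to 4.46 to 5.32 CPM in knockout and 6.43 to 6.92 CPM in wild type libraries, with 1 of 6 called lower and Cdh5 and Emcn at 0. Immune markers summed to 2.68 to 2.86 CPM in knockout and 3.57 to 5.65 CPM in wild type libraries, with 1 of 8 called higher, 2 lower and Cd3e at 0. Muscle and nerve markers summed to 22.3 to 25.9 CPM in knockout and 46.2 to 49.9 CPM in wild type libraries, with 3 of 8 called higher, 1 lower and Myod1 at 0. Without Tubb3, the marker called lower, that sum was 7.68 to 8.38 CPM in knockout and 4.20 to 6.63 CPM in wild type libraries, the opposite direction. Keratinocyte markers summed to 25830 to 26810 CPM in knockout and 43030 to 48130 CPM in wild type libraries, with 1 of 10 called higher and 8 lower. The sum over 4 genes of the Y chromosome was 0.101 to 0.158 CPM in knockout and 60.7 to 68.1 CPM in wild type libraries, so the sexes of the cells differed between the groups. Sex followed genotype in every library, so the results below cannot tell them apart. The part of the marker differences in those results was not tested.

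Among the imprinted genes, a group led by Peg3, Usp29, Mest, Cdkn1c, Plagl1, Slc38a4 and H19 was much lower in knockout cells, while Igf2r, Grb10, Impact, Zrsr1, Snrpn and others were moderately higher. The filter passed 34 of the 40 genes, of which 12 were called higher, 12 lower and 10 not called. Calls of either direction made up 48.6% of all genes tested, and since the list was drawn up with this contrast known nothing is read from the difference. A further count found 9 called lower by at least 1 log2 unit (5.94% of all genes tested) and 1, Gatm, was called higher by that much (8.56%). The groups did not overlap in 24 of the 34 (56.4% of all genes tested). In bulk RNA, fewer cells of a type and less RNA per cell cannot be told apart.

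**Figure D1:**
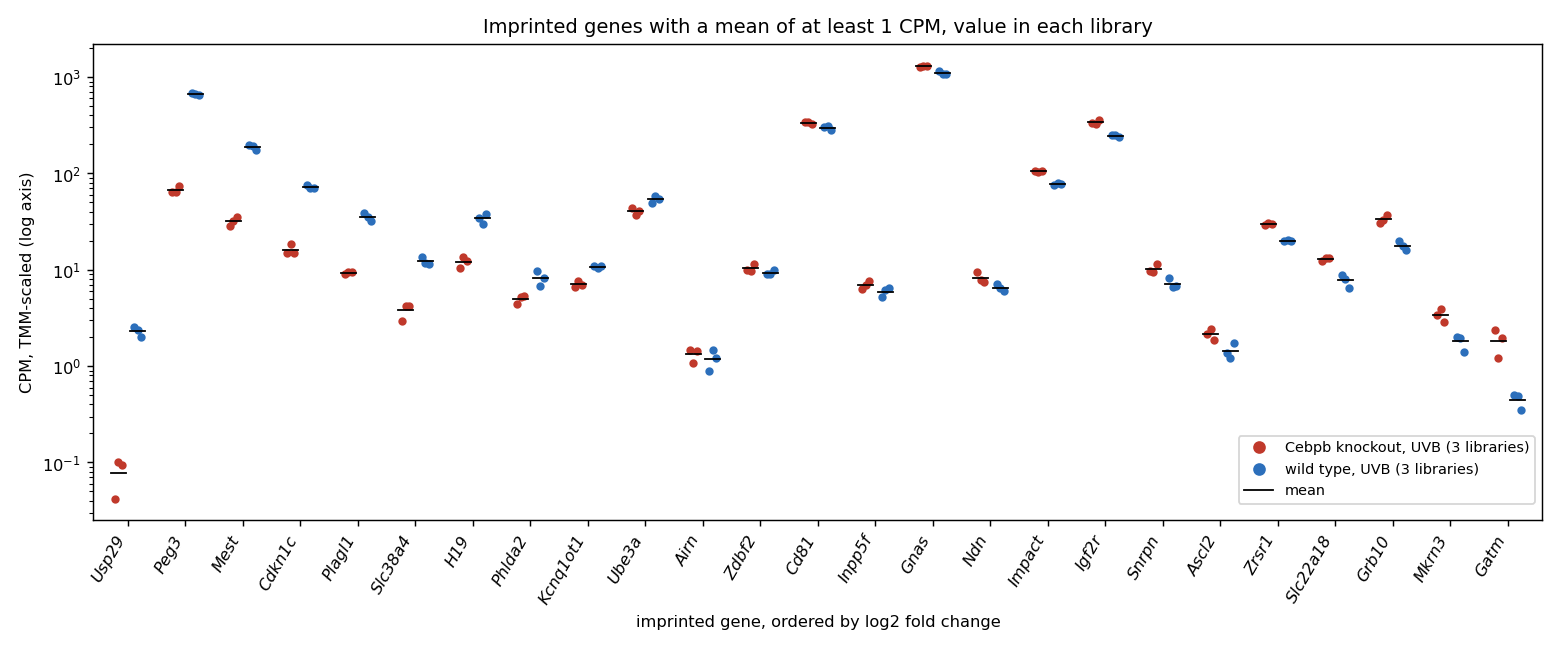
CPM (TMM-scaled, log axis) of the 25 imprinted genes that averaged 1 CPM or more, with a point for each library (3 Cebpb knockout, 3 wild type) and a bar for the group mean, ordered by log2 fold change. Peg3 stood at 64.4 to 73.9 CPM in knockout and 659 to 681 CPM in wild type libraries, while Gnas was at 1072 CPM or above in all of them.

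Summed over the 22 paternally expressed genes, the level was 291 ± 10.6 CPM in knockout and 1043 ± 27.2 CPM in wild type cells (SD, n = 3 each). Peg3 (67.7 CPM in knockout and 667 CPM in wild type cells) and Mest (32.1 and 189 CPM) held all of that difference. Without these genes the paternal sum was not lower in knockout cells. Over the 16 maternally expressed genes the sum was 803 ± 9.96 CPM in knockout and 740.5 ± 22.5 CPM in wild type cells. Peg3 made up 2.69% to 3.03% of the summed CPM of all 40 genes in knockout libraries and 22.8% to 23.4% in wild type libraries. Gnas, which encodes the stimulatory G protein alpha subunit, made up 53.9% to 54.5% in knockout libraries and 37.3% to 38.7% in wild type libraries. The sums are not corrected for transcript length and are weighted to these abundant genes.

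**Figure D2:**
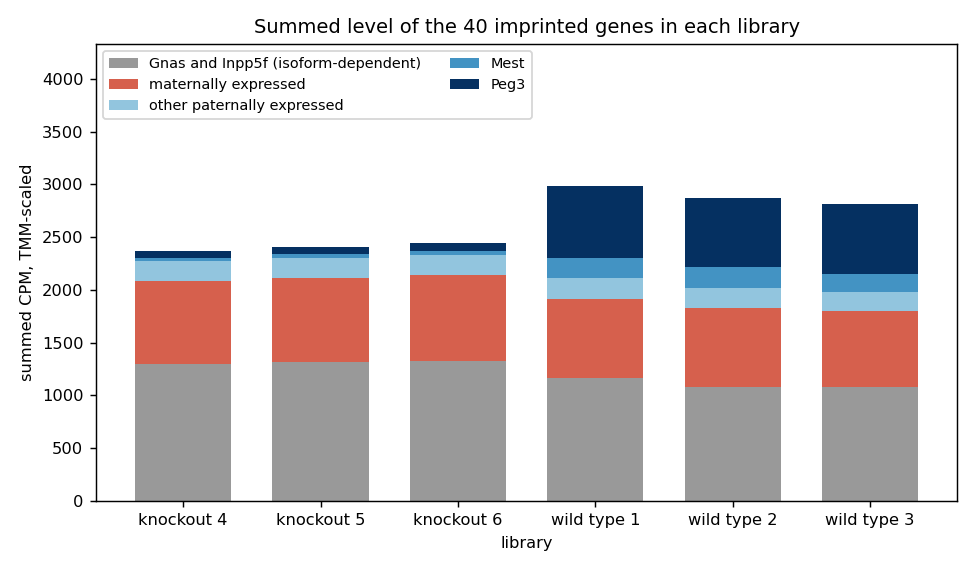
Summed CPM (TMM-scaled) of the 40 imprinted genes in each of the 3 knockout and 3 wild type libraries, split into Peg3, Mest, other paternally expressed genes, maternally expressed genes, and Gnas with Inpp5f. The Peg3 segment falls to under 74 CPM in every knockout library and is over 659 CPM in every wild type library.

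Per kilobase of annotated exon, Cd81 and Gnas led in knockout cells, at 117 ± 2.81 and 117 ± 1.37 CPM per kb, and did not differ beyond their spread. Igf2r followed at 36.5 ± 1.53, Impact at 20.6 ± 0.176 and Mest at 8.14 ± 0.878 CPM per kb, the last close to Cdkn1c (7.93 ± 1.05) and Slc22a18 (7.66 ± 0.339). In wild type cells Cd81 (103 ± 5.34) and Gnas (98.5 ± 4.27) also led within their spread, but Peg3 (50.0 ± 0.905) and Mest (48.0 ± 3.10) came next, ahead of Cdkn1c (35.4 ± 1.38) and Igf2r (26.4 ± 0.889 CPM per kb). Peg3 thus ranked 9 of the 40 genes in knockout and 3 in wild type cells.

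All 3 members of the Peg3 cluster on chromosome 7 were lower in knockout cells. Peg3 (ENSMUSG00000002265), a paternally expressed gene for a large zinc finger protein with roles in growth and maternal behaviour, had 64.4, 64.7 and 73.9 CPM in knockout libraries, against 681, 660 and 659 CPM in wild type libraries. The groups lay far apart and the libraries of each stayed close together. The log2 fold change was -3.30 ± 0.07 (SE), a level 9.86-fold higher in wild type. Usp29, a ubiquitin protease gene that runs the other way from the promoter shown above, had 4, 10 and 8 counts in knockout libraries, against 285, 276 and 202 in wild type libraries. This was 0.0420, 0.101 and 0.0931 CPM in knockout cells, against 2.56, 2.37 and 2.02 CPM in wild type cells, and a log2 fold change of -4.86 ± 0.31. Usp29 passed the filter through its wild type libraries alone. Zim1, a maternally expressed zinc finger gene of the same cluster, was scarce, with 0.168, 0.101 and 0.163 CPM in knockout and 0.412, 0.336 and 0.531 CPM in wild type libraries. Its log2 fold change was -1.56 ± 0.44 (edgeR adjusted p = 0.00772, and 0.00539 to 0.0424 over the alternatives). Counts of Usp29 and Zim1 in knockout libraries were too few for firm ratios between the 3 genes. Per kilobase, the ratio of Peg3 to Usp29 was 870 to 2080 in knockout and 361 to 442 in wild type libraries, and that of Peg3 to Zim1 was 232 to 389 in knockout and 753 to 1195 in wild type libraries.

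The paternally expressed genes Mest, Plagl1 and Slc38a4 were lower too. Mest, which encodes a membrane protein of the hydrolase family and whose loss slows growth in mice, had 28.6, 32.1 and 35.6 CPM in knockout libraries, against 198, 194 and 175 CPM in wild type libraries (log2 fold change -2.56 ± 0.08, SE). Copg2 overlaps 23.1% of the Mest exon length on the opposite strand, and it was not called (log2 fold change 0.05). The ratio of Mest to Copg2 per kilobase was 1.04 to 1.15 in knockout and 5.98 to 6.94 in wild type libraries. Plagl1, the ZAC1 gene named above, had 9.14, 9.54 and 9.41 CPM in knockout libraries, against 38.6, 35.5 and 31.9 CPM in wild type libraries (-1.92 ± 0.09). The knockout libraries lay within 0.5 CPM of each other. Slc38a4, an amino acid transporter gene, had 2.94, 4.26 and 4.23 CPM in knockout libraries, against 13.4, 11.6 and 11.5 CPM in wild type libraries (-1.68 ± 0.15).

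Members that restrain growth moved both ways. Cdkn1c, which encodes the cyclin-dependent kinase inhibitor p57, had 15.0, 18.6 and 14.9 CPM in knockout libraries, against 75.2, 69.9 and 71.1 CPM in wild type libraries (log2 fold change -2.15 ± 0.09, SE). An antisense gene, Gm44732, covers 30.7% of its exon length, and had at most 27 counts in any library, against at least 1279 of Cdkn1c. H19, a long noncoding RNA, had 10.3, 13.5 and 12.3 CPM in knockout libraries, against 34.4, 29.9 and 38.3 CPM in wild type libraries (-1.51 ± 0.11). Phlda2, which limits placental growth, had 4.42, 5.22 and 5.30 CPM in knockout libraries, against 9.75, 6.79 and 8.26 CPM in wild type libraries (-0.73 ± 0.14). These 3 fell without overlap between the groups. Grb10, an adaptor that dampens insulin and IGF signalling, was higher, with 30.4, 32.8 and 37.2 CPM in knockout libraries, against 20.1, 17.5 and 15.9 CPM in wild type libraries (0.91 ± 0.10). Igf2r, the receptor that clears IGF2 into lysosomes, was also higher, with 335, 328 and 355 CPM in knockout libraries, against 253, 249 and 237 CPM in wild type libraries (0.46 ± 0.06). Per kilobase, the ratio of Grb10 to Cdkn1c was 0.394 to 0.561 in knockout and 0.0502 to 0.0600 in wild type libraries. The scaling of libraries cannot change this ratio. Grb10 was higher and Cdkn1c lower in every knockout library than in any wild type library. The groups therefore had to lie apart in the ratio, which adds no further support.

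**Figure D3:**
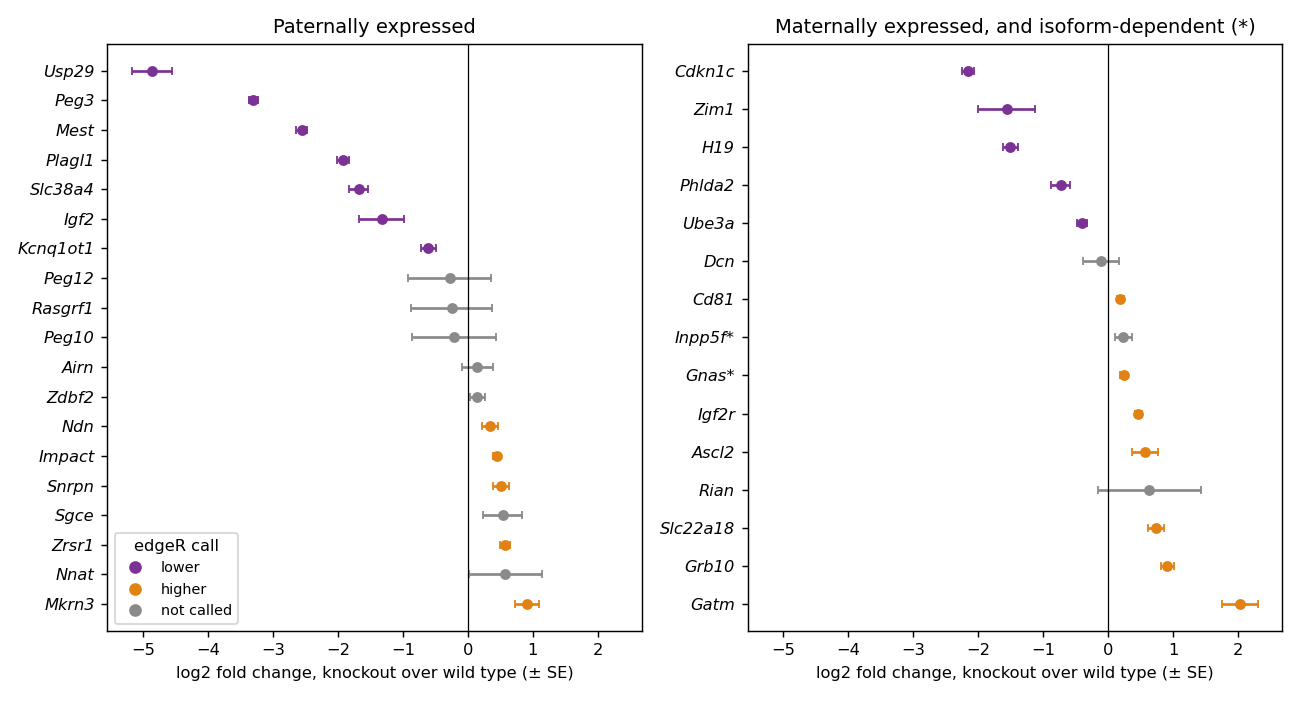
Log2 fold change (knockout over wild type, ± SE) of the 34 tested imprinted genes, with paternally expressed genes in the left panel and maternally expressed and isoform-dependent genes in the right panel, coloured by the edgeR call. Paternally expressed genes run from -4.86 to 0.91 and maternally expressed genes from -2.15 to 2.03.

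Within the Kcnq1 cluster, whose silencing is steered by the paternally expressed noncoding RNA Kcnq1ot1, neighbouring genes went opposite ways. All 6 members were tested, with 3 called higher and 3 lower (24.8% and 23.7% of all genes tested). Besides Cdkn1c and Phlda2, Kcnq1ot1 itself was lower, with 6.59, 7.71 and 6.88 CPM in knockout libraries, against 11, 10.4 and 10.9 CPM in wild type libraries (log2 fold change -0.61 ± 0.11, SE). Slc22a18, a transporter gene that lies between Cdkn1c and Phlda2, was higher, with 12.4, 13.3 and 13.4 CPM in knockout libraries, against 8.81, 8.10 and 6.54 CPM in wild type libraries (0.73 ± 0.12). Cdkn1c and Slc22a18 therefore stood at a ratio of 0.928 to 1.16 per kilobase in knockout libraries and 7.11 to 9.06 in wild type libraries. Cd81, a tetraspanin gene imprinted in the placenta, had 339, 346 and 330 CPM in knockout libraries, against 301, 310 and 280 CPM in wild type libraries (0.19 ± 0.06). The edgeR call was lost when wild type replicate 3 was left out (adjusted p = 0.0798) or knockout replicate 5 (adjusted p = 0.0574). Ascl2, a transcription factor gene also imprinted in the placenta, had 2.14, 2.40 and 1.85 CPM in knockout libraries, against 1.36, 1.22 and 1.75 CPM in wild type libraries (0.56 ± 0.20). Its call was lost without wild type replicate 1 or 2 and without knockout replicate 4 or 5 (edgeR adjusted p = 0.0623 to 0.121). The host gene Kcnq1, a potassium channel subunit gene named after its values were seen, had 171, 211 and 173 counts in knockout libraries, against 43, 33 and 13 in wild type libraries (2.87, edgeR adjusted p = 1.07e-06). It runs antisense to Kcnq1ot1, and without a stated strand setting reads of the pair cannot be told apart where their exons overlap. Kcnq1 and 4 other genes on that strand together cover 1.2% of the Kcnq1ot1 exon length. The share of the Kcnq1 exon length that overlaps was not measured, so the value of Kcnq1 is uncertain.

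**Figure D4:**
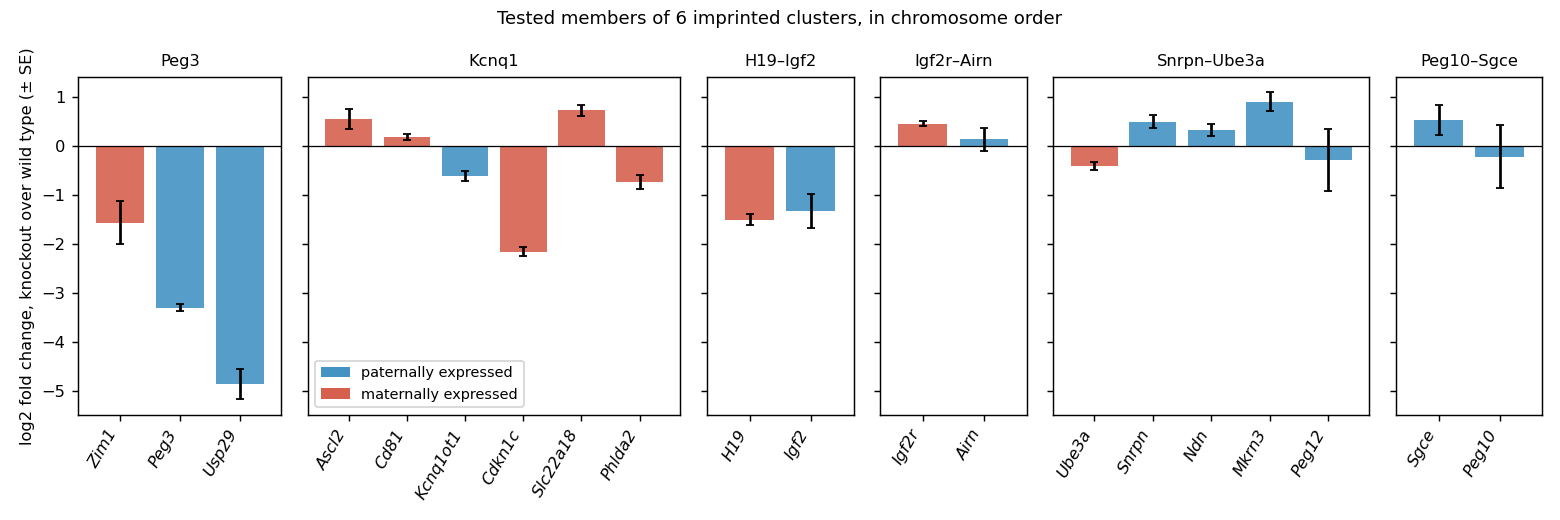
Log2 fold change (knockout over wild type, bars, ± SE) of the tested members of 6 imprinted clusters, in their order on the chromosome, coloured by the active parental copy. The Peg3 and H19–Igf2 clusters lie below 0 for every tested member, whereas the Kcnq1 cluster holds both directions, with Slc22a18 at 0.73 between Cdkn1c at -2.15 and Phlda2 at -0.73.

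H19 and Igf2, which share enhancers and are read from opposite parental copies, were both lower in knockout cells. Igf2, the fetal growth factor IGF2, was scarce, with 0.494, 0.716 and 0.233 CPM in knockout libraries, against 1.44, 1.37 and 0.832 CPM in wild type libraries (log2 fold change -1.33 ± 0.35, SE). The groups stood just apart, the highest knockout library at 0.716 and the lowest wild type library at 0.832 CPM. Its level is uncertain, because 62.8% of its exon length is shared with Gm49394 on the same strand. Gm49394 had at most 2 counts in any library, and Igf2os on the opposite strand covers 1.7% of the Igf2 exon length. The ratio of H19 to Igf2 per kilobase was 43.8 to 123 in knockout and 50.9 to 107 in wild type libraries, so the groups overlapped. In the Igf2r cluster, the noncoding RNA Airn, which silences Igf2r on the paternal copy, had 1.46, 1.08 and 1.44 CPM in knockout libraries, against 0.896, 1.48 and 1.22 CPM in wild type libraries. It was not called (0.14 ± 0.24, edgeR adjusted p = 0.654), and the ratio of Igf2r to Airn overlapped, at 88.6 to 118 in knockout and 65.0 to 109 in wild type libraries.

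In the cluster linked to Prader-Willi and Angelman syndromes, 3 of 5 tested genes were called higher, 1 was called lower and 1 was not called. Among all genes tested the shares were 24.8% higher and 23.7% lower. Snrpn, which encodes a splicing protein, had 9.72, 9.46 and 11.4 CPM in knockout libraries, against 8.23, 6.57 and 6.73 CPM in wild type libraries (log2 fold change 0.51 ± 0.13, SE). Of its exon length 27.3% is shared with Snurf and Gm38393 on the same strand. Mkrn3, a ring finger gene known as a brake on puberty, had 3.40, 3.94 and 2.88 CPM in knockout libraries, against 2.03, 1.98 and 1.41 CPM in wild type libraries (0.91 ± 0.19). Ndn, the gene of necdin, had 9.44, 7.93 and 7.42 CPM in knockout libraries, against 7.17, 6.47 and 5.98 CPM in wild type libraries (0.34 ± 0.13). The Ndn call was lost without knockout replicate 4 or 5, without wild type replicate 2 or 3, and after thinning all libraries to an equal depth (edgeR adjusted p = 0.062 to 0.211). Ube3a, a ubiquitin ligase gene whose imprinting is known from neurons, went the other way, with 43.6, 37.1 and 41.1 CPM in knockout libraries, against 49.0, 58.1 and 54.1 CPM in wild type libraries (-0.40 ± 0.08). With library totals it was not called (-0.21, edgeR adjusted p = 0.0631). Antisense genes, Snhg14 and 2 others together, cover 27.3% of the Ube3a exon length, and unstranded counts could not be told apart there. Snhg14 was higher, at 1.37 ± 0.126 CPM in knockout and 0.613 ± 0.149 CPM in wild type cells (1.15). The ratio of Snrpn to Ube3a per kilobase was 2.13 to 2.65 in knockout and 1.08 to 1.60 in wild type libraries. Peg12 had 10, 11 and 12 counts in knockout libraries, against 5, 23 and 19 in wild type libraries, and was not called (-0.28 ± 0.63). Magel2 had 1 count in 1 wild type library and none elsewhere.

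Several imprinted genes outside these clusters were higher in knockout cells. Impact, which restrains the GCN2 kinase in the amino acid response, had 106, 105 and 106 CPM in knockout libraries, against 75.9, 79.2 and 78.3 CPM in wild type libraries (log2 fold change 0.44 ± 0.06, SE). Zrsr1, a retrocopy of a splicing factor gene, had 28.9, 30.6 and 29.8 CPM in knockout libraries, against 19.8, 20.3 and 20.1 CPM in wild type libraries (0.57 ± 0.08). Its X-linked relative Zrsr2, with which it can share reads, was not called (-0.15). Gatm, which makes the precursor of creatine and is imprinted in the placenta, had 2.35, 1.21 and 1.94 CPM in knockout libraries, against 0.502, 0.490 and 0.351 CPM in wild type libraries (2.03 ± 0.28). Gnas had 1287, 1309 and 1316 CPM in knockout libraries, against 1157, 1072 and 1077 CPM in wild type libraries (0.24 ± 0.05). Its transcripts from different promoters are not told apart by gene counts. Zdbf2, a zinc finger gene, had 9.94, 9.64 and 11.5 CPM in knockout libraries, against 9.05, 9.11 and 9.95 CPM in wild type libraries, and was not called (0.15 ± 0.11). Inpp5f, a phosphatase gene with 1 imprinted isoform, had 6.33, 6.94 and 7.67 CPM in knockout libraries, against 5.17, 6.18 and 6.48 CPM in wild type libraries, and was not called (0.23 ± 0.13). Both were called higher with library totals (0.34 and 0.43).

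The Dlk1-Meg3 cluster was nearly silent in both genotypes. Dlk1, a Notch-like ligand of precursor cells, had 0 counts in every knockout library, against 22, 10 and 10 in wild type libraries. The wild type mean was 3.97-fold above a floor of 3 counts per knockout library, with no allowance for error in that mean. Meg3 had 10, 17 and 6 counts in knockout libraries, against 11, 3 and 0 in wild type libraries. Rian, another noncoding RNA of the cluster, had 3, 21 and 14 counts in knockout libraries, against 16, 12 and 1 in wild type libraries (log2 fold change 0.64 ± 0.79, SE, not called). Mirg had 0 counts in every knockout library, against 10, 3 and 1 in wild type libraries. Rtl1 had 0 counts throughout. Apart from Rian, these genes did not pass the filter. The Peg10-Sgce cluster on chromosome 6 was scarce as well. Peg10, a retrotransposon-derived gene, had 16, 12 and 12 counts in knockout libraries, against 13, 38 and 5 in wild type libraries, and was not called (-0.22 ± 0.65). Sgce, the gene of epsilon-sarcoglycan that shares its promoter region with Peg10, had 98, 106 and 51 counts in knockout libraries, against 90, 62 and 52 in wild type libraries (0.53 ± 0.30, not called). Asb4 had 11 counts in knockout library 6, none in the other knockout libraries, and 1 in each wild type library. Dcn, a matrix proteoglycan gene of fibroblasts, had 66, 69 and 54 counts in knockout libraries, against 102, 80 and 57 in wild type libraries (-0.11 ± 0.28, not called). Nnat and Rasgrf1, known from brain, had at most 27 counts in any library and were not called (0.57 ± 0.56 and -0.25 ± 0.63).

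Both parental classes held genes called in each direction. Over all genes tested, 24.8% were called higher and 23.7% lower, and since this contrast was known when the members were chosen nothing is read from the difference. Of 22 paternally expressed genes 19 were tested, with 5 called higher, 7 called lower and 7 left without a call, and their log2 fold changes ran from -4.86 to 0.91 around a median of -0.22. The sign of this median turned in the fit of limma voom (0.13), without wild type replicate 2 (0.13), and among genes averaging 1 CPM or more (0.16). In the main fit and with limma voom the median was the value of Peg10, which had 5 to 38 counts per library. Of 16 maternally expressed genes 13 were tested, with 6 called higher, 5 called lower and 2 left without a call, and they ran from -2.15 to 2.03 around a median of 0.19. Over all genes tested the median was 0.01. Falls of at least 1 log2 unit were found in 6 paternally expressed genes (Usp29, Peg3, Mest, Plagl1, Slc38a4 and Igf2) and in 3 maternally expressed genes (Cdkn1c, Zim1 and H19). Such falls were called in 5.94% of all genes tested. Among maternally expressed genes with imprinting beyond the placenta or neurons, 3 of 8 tested were called higher and 4 lower, and the median was -0.13, of the opposite sign. Among those imprinted mainly in the placenta or neurons, 3 of 5 were called higher and 1 lower, with a median of 0.19. No difference between these classes was tested.

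**Figure D5:**
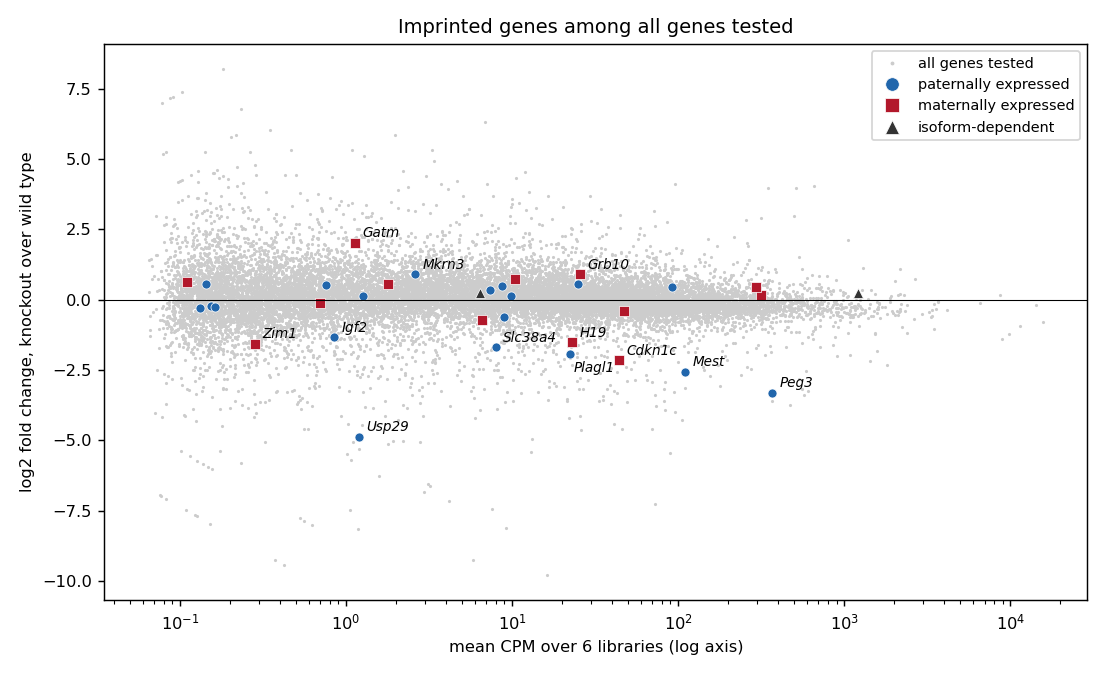
Log2 fold change (knockout over wild type) against the mean CPM over 6 libraries (log axis) for all 17659 genes tested, in grey, and the 34 tested imprinted genes by active parental copy. The imprinted genes run from Usp29 at -4.86 to Gatm at 2.03.

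Another list held 22 genes whose products keep imprints, silence chromatin or, like those of the Tet genes, start demethylation. Of these, 20 were tested, with 10 called higher, 3 lower and 7 not called (median log2 fold change 0.21). Over all genes tested, 24.8% were called higher and 23.7% lower. Zfp57, the factor whose core motif was searched above, was higher, at 5.85 ± 0.708 CPM in knockout and 2.63 ± 0.134 CPM in wild type cells (1.16 ± 0.14, SE). The methyltransferase gene Dnmt3a rose by 0.55 on the log2 scale and Ehmt1, a histone methyltransferase gene, by 0.57. The helicase gene Hells rose by 0.53 and Uhrf1, which guides maintenance methylation, by 0.49. The groups of Hells overlapped, at 6.245 to 8.143 CPM in knockout and 3.29 to 6.279 CPM in wild type libraries (edgeR adjusted p = 0.0424). Tet3, an oxidase that starts demethylation, fell to 59.3 ± 4.57 CPM in knockout cells, against 82.4 ± 11.8 CPM in wild type cells (-0.47). Tet1, of the same family, went the other way and changed most in the list, with 2.42 ± 0.480 CPM in knockout and 0.237 ± 0.151 CPM in wild type cells (3.36 ± 0.36). Dnmt3b, a methyltransferase gene like Dnmt3a, was lower, at 1.23 ± 0.138 CPM in knockout and 2.62 ± 0.221 CPM in wild type cells (-1.09 ± 0.18). Tet1 and Dnmt3b averaged under 2 CPM and were named after their values were seen. Among 38 neighbours and host genes of the clusters, 23 were tested, with 8 called higher, 6 lower and 9 not called (median 0.05), beside the same shares over all genes. Cobl, next to Grb10, fell by 1.05 on the log2 scale, at 3.06 ± 0.378 CPM in knockout and 6.35 ± 1.14 CPM in wild type cells. Pon2, an antioxidant enzyme gene near Sgce, was higher, at 81.9 ± 3.09 CPM in knockout and 56.6 ± 3.15 CPM in wild type cells (0.53 ± 0.07). Casd1, also near Sgce, was higher by 0.38, Tssc4 of the Kcnq1 region by 0.34 and the decoy receptor gene Tnfrsf22 by 0.26. Commd1, the host gene of Zrsr1, was lower (-0.35) while Zrsr1 was higher. Reads of Tnfrsf22 and its near copy Tnfrsf23 can be shared, so the value of Tnfrsf22 is uncertain. Tnfrsf23 was called lower (-0.23). By at least 1 log2 unit, 4 neighbours and host genes were called higher and 2 lower (8.56% and 5.94% of all genes tested). They included Ppp1r9a (2.57) and Tnfrsf26 (-2.62), which averaged under 2 CPM and were named after their values were seen.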

How the data were processed

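RNA of 6 libraries was read in pairs 150 bp long, per the labels. The values are raw counts per gene, deposited by the authors with a column for each library. The submitters' processing notes name FastQC, STAR, HTSeq and DESeq2 and the genome builds mm39 and GRCm39. Tool versions, gene annotation and strand setting were not given in the sources used here. Ensembl identifiers were matched to symbols for 52083 of 55416 genes, and every row entered the filter. Exon lengths and overlaps were read from GENCODE M21 and sequences from RefSeq GRCm38.p6. Both are of an older build, so positions are given for printed sequences only.

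Knockout was compared with wild type by the robust quasi-likelihood fit of edgeR 4.0.16 in R 4.3.3, without covariates. The filter was filterByExpr (minimum 10 counts), the scaling TMM, and a call an adjusted p (Benjamini-Hochberg, over 17659 genes) under 0.05. An SE was obtained from a fold change and its F statistic. Errors beside CPM are SDs of 3 libraries. The code was tested on simulated data, and DESeq2 1.42.0 and limma 3.58.1 served as alternatives, beside other scalings and filters and the omission of each library.

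Whether replicates were separate animals or cultures is not stated in the labels. The p-values therefore cover the spread of these samples, possibly technical. No library repeated another, as the chi-square per degree of freedom between replicates was 19.7 to 46.9 for genes averaging 50 counts or more. The members, lists and parental classes were chosen with earlier results of these data known. Members averaging 1 CPM or more are described library by library. From the other lists, up to 6 called genes averaging 2 CPM or more are named. The floor of 3 counts covers counting error only.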

Additional observations from a re-analysis of the deposited data

How the results depend on the processing

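The results were recomputed under 14 alternatives: other scalings, filters and tests, thinning, no X and Y genes, and each library left out. Of 34 tested members, 18 kept their direction and their side of the threshold under all 14. Another 5, all under 1 CPM (Zim1, Igf2, Rian, Sgce and Nnat), kept both under the 13 that could include them. The number called over all genes was 7500 to 8322 with 1 library left out, and the members called were 9 to 12 higher and 12 to 13 lower. The median log2 fold change of paternally expressed members was -0.026 with library totals, -0.067 with thinned libraries, 0.16 among genes averaging 1 CPM or more, 0.13 with limma voom and -0.31 to 0.13 with 1 library left out. That of maternally expressed members was 0.38 with library totals, 0.34 among genes averaging 1 CPM or more, 0.32 with no filter and 0.13 to 0.34 with 1 library left out. The paternal median was the value of Peg10 itself in the main fit (-0.22), with library totals, with thinned libraries and with limma voom. Library totals also moved the median of all genes tested, to 0.21 from 0.01. A filter changes which members are counted. The cause of the shifts was not tested further. Members whose sign turned were not called in any fit. They were Dcn with library totals (0.091), Peg10 with limma voom (0.13), and, with 1 library left out, Airn (-0.032 to 0.32), Dcn (-0.26 to 0.091), Peg10 (-0.64 to 0.75), Peg12 (-0.71 to 0.024) and Rasgrf1 (-0.68 to 0.046). At 5 to 38 counts per library in Peg10, Peg12 and Rasgrf1, depth limits what can be seen. The summed marker levels without 1 gene were chosen after seeing the data. Knockout minus wild type was -8.08 CPM for fibroblast markers without Postn, against 4.49 with it, and 2.65 CPM for muscle and nerve markers without Tubb3, against -23.8 with it. The other 4 lists kept their direction without the marker that differed most. No paired analysis was possible because the library numbers do not repeat between the groups.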
